A study of Rattus norvegicus and Mus musculus with 61 samples.

Results

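Oxidative phosphorylation is the process by which mitochondria turn the energy of food into ATP. The genes described here encode the nuclear subunits of its machinery. They were chosen by name: a gene was taken where a probe set (a group of short array probes for 1 transcript) carried a single gene symbol that began with Ndufa, Ndufb, Ndufc, Ndufs or Ndufv, with Cox4 to Cox8, with Atp5 or with Uqcr, or that was Sdha, Sdhb, Sdhc or Sdhd. That gave 90 distinct symbols of 9933 in both species: 71 of 8251 mouse genes and 54 of 4736 rat genes. Each gene was represented by the probe set with the highest mean signal. A filter on dim probe sets left 66 mouse genes and kept all 54 rat genes, while the mouse genes Atp5j2, Cox5a, Cox7a1, Cox8a and Ndufa12 did not pass.

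The arrays measured RNA from parieto-occipital cortex, taken from male C57BL/6 mice (20 to 25 g) and male Sprague-Dawley rats (400 g, spread 25 g). Mouse injury groups had a moderate controlled cortical impact at 6 m/s with 1.5 mm deformation and were sampled at 4, 8, 24 and 72 h (3 arrays each), against sham surgery at the same times (2 arrays each) and naive mice (2 arrays). Each mouse array held a pool of 3 cortex disks of 4 mm. Rat injury groups had fluid percussion, a brief 2.5 atm pressure pulse on the brain, and were sampled at 30 min (5 arrays), 4, 8, 24 and 72 h and 21 d (3 arrays each). They were compared with sham rats at 30 min and 4 h (4 arrays each) and at 8, 24 and 72 h and 21 d (2 arrays each), and 3 naive rats, with 1 rat disk of 7 mm per array. Mice were anesthetized with isoflurane and rats with sodium pentobarbital. The disk from an injured animal was centred on the impact and held the contusion, so it is a mixture of surviving, dying and incoming cells.

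Electrons from food enter the chain at complex I, which oxidises NADH, or at complex II, succinate dehydrogenase, which is also an enzyme of the TCA cycle. Complex III passes them on, complex IV (cytochrome c oxidase) hands them to oxygen, and complex V (ATP synthase) uses the resulting proton gradient to make ATP. Neurons draw most of their ATP from this chain, and loss of mitochondrial function is a well-known feature of injured brain. In mouse the genes fell into 29 of complex I, 4 of complex II, 7 of complex III, 15 of complex IV, 14 of complex V and 2 complex I assembly factors (Ndufaf1 and Ndufaf4). In rat there were 26 of complex I, 1 of complex II (Sdha), 3 of complex III, 13 of complex IV, 10 of complex V and 1 assembly factor (Ndufaf3). Complexes were assigned by symbol. Ndufa4 counts under complex I by its name although the protein is known to belong to complex IV, and Cox6c-ps1 is a pseudogene by its name. Mouse ATP synthase genes carry older symbols (Atp5c1, Atp5d) than the rat ones (Atp5f1b, Atp5pd), so few of them matched between species.

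Genes of this machinery are known targets of the transcription factors NRF1 and GABPA, and promoters are shown here for 3 rat genes the results turn on. RefSeq windows on GRCr8, 250 bases before to 50 bases after the gene start, matched 46 of the 54 rat genes. Capitals mark matches to the spaced NRF1 motif, GCGCA then any base then GCGC (letters chosen after the windows had been read), the NRF1 half-site CATGCGC and the ETS core CCGGAAG bound by GABPA, searched on both strands.
Sdha, chr1:30764303-30764602, plus strand: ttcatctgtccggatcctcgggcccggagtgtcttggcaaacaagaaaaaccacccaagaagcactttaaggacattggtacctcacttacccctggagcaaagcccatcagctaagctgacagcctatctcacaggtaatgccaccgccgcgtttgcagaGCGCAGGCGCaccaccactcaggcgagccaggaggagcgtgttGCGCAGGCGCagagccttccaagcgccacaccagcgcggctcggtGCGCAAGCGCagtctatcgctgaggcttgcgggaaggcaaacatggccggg
Ndufa6, chr7:115750268-115750567, minus strand: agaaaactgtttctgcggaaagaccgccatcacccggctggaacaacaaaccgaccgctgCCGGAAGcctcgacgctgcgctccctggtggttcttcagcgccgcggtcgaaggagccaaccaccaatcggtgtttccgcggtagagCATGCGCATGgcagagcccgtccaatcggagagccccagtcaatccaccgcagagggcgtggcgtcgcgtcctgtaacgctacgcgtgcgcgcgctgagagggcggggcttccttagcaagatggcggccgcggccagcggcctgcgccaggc
Atp5f1b, chr7:1099808-1100107, plus strand: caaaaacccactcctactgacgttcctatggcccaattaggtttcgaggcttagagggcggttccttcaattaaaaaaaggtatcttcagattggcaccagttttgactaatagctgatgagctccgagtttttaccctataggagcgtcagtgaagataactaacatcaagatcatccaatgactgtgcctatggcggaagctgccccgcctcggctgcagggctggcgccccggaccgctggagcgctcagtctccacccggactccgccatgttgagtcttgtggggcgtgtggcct
The window of Sdha, the catalytic flavoprotein of complex II, held 3 matches to the spaced motif. That of Ndufa6, an accessory subunit of complex I, held 2 half-sites that overlap on opposite strands and 1 ETS core. That of Atp5f1b, the catalytic beta subunit of ATP synthase, held no match to these letters. The half-site was found in 5 of 46 windows (10.9%), against 3.77% of all 33469 rat promoter windows. The ETS core was found in 9 (19.6%), against 8.75%, and the spaced motif in 6 (13%), against 4.25%. The letters of the spaced motif were chosen after windows counted here, that of Sdha among them, had been read. Its share therefore cannot be read as an excess over the background. None of these shares was tested. A match describes the letters only and is not a measured binding site.

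All arrays were on a common scale, and neuronal, glial and vascular marker genes were detected in both species. Median correlation with the other arrays of the species was 0.886 to 0.939 in mouse. Among rat arrays 4 stood apart: injury 30 min replicate 5 (0.755), sham 30 min replicate 3 (0.785), and sham 4 h replicates 3 (0.662) and 4 (0.537), against 0.818 to 0.931 in the others. The GAPDH 3′ to 5′ probe ratio, a sign of RNA quality, was 3.06, 1.15, 2.63 and 0.242 on these 4 arrays in that order. They were kept, and rat results are also given without them. In mouse, both sham 4 h arrays carried high pituitary hormone signal, with a marker sum of 18660 to 20952, against 2250.6 to 2672.9 in injury 4 h arrays. These sham arrays are the reference of every mouse 4 h difference and enter each mouse comparison of 72 h with 4 h. Their part in those values was not tested. A signal in bulk tissue cannot tell fewer cells of a type from less RNA per cell, and this holds for every value below.

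In mouse cortex the chain as a whole stayed close to sham level, while 8 of the 66 genes fell at 1 or more times and none rose. Differences are log2 injury minus time-matched sham, with the standard error from limma, and a call means an adjusted p below 0.05 (Benjamini-Hochberg over all 6355 genes tested). Called genes numbered 0 at 4 h, 3 at 8 h, 1 at 24 h and 6 at 72 h, and each was lower after injury. Of all genes tested, 0.865% were called at 4 h, 8.18% at 8 h, 10.7% at 24 h and 15.5% at 72 h. Lower calls made up 0.189%, 3.27%, 4.5% and 5.68% of all genes at these times, against 0%, 4.55%, 1.52% and 9.09% of the chain genes, so the share that fell was near the background at 8 h, under it at 24 h and above it at 72 h, with no test of these differences. Higher calls made up 0.677%, 4.91%, 6.2% and 9.85% of all genes and none of the chain genes. At an unadjusted p below 0.05 the counts were 2, 7, 5 and 9 of 66. Among all 6355 genes they were 576, 1398, 1515 and 1729.

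The median difference over the 66 mouse genes was -0.08 at 4 h, -0.06 at 8 h, 0.01 at 24 h and -0.10 at 72 h, against 0.00, -0.03, -0.04 and -0.01 over all genes. Single genes ranged over -0.67 to 0.35 at 4 h, -1.03 to 0.50 at 8 h, -0.57 to 0.48 at 24 h and -1.22 to 0.61 at 72 h. All injury arrays lay below all sham arrays for 14, 16, 15 and 11 of 66 genes at these times, which is 21.2%, 24.2%, 22.7% and 16.7%. Among all genes the shares were 16.4%, 20.3%, 19.7% and 18%. They lay above for 4, 4, 6 and 3 genes (6.06%, 6.06%, 9.09% and 4.55%), against 18%, 17.8%, 17% and 20.5% of all genes. These differences in share were not tested.

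**Figure D1:**
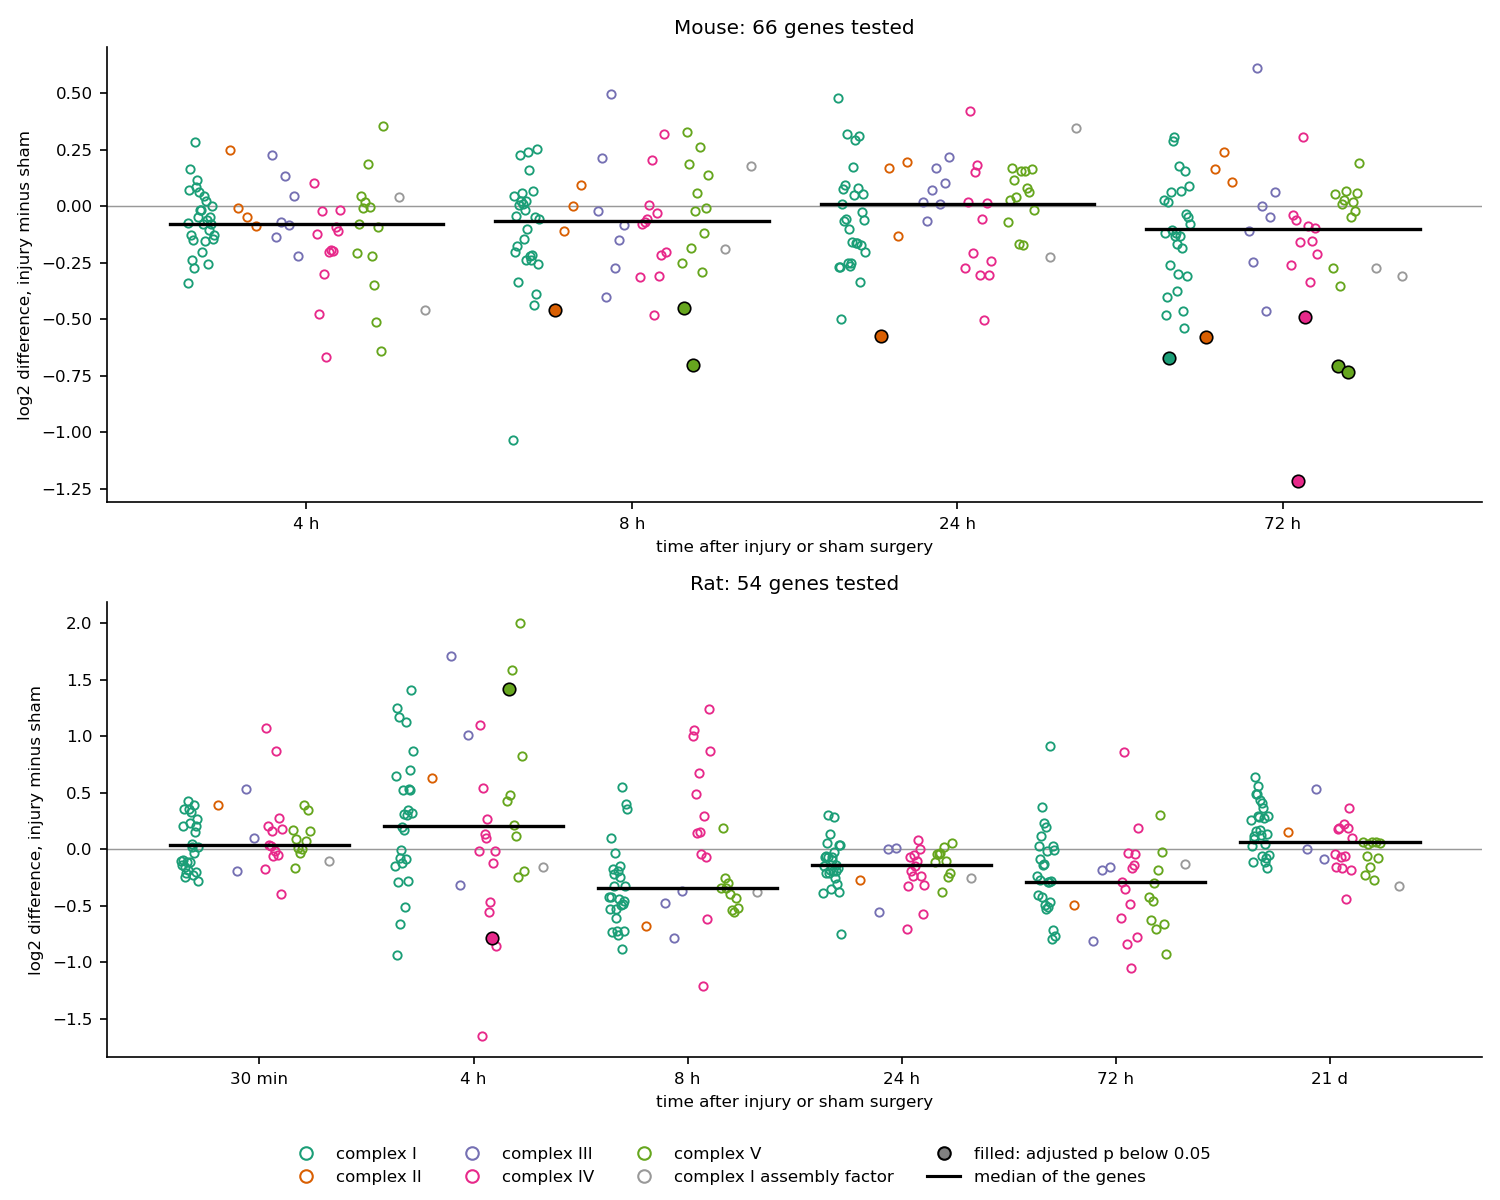
Log2 differences (injury minus time-matched sham, vertical axis) of the 66 mouse genes (top) and the 54 rat genes (bottom) by time after injury, coloured by complex. Filled points passed the test and the line marks the median. Mouse medians lie between -0.10 and 0.01, while rat medians run between -0.34 at 8 h and 0.21 at 4 h.

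Sdha, the succinate-oxidising flavoprotein of complex II, was the most persistent change in the mouse and fell at 8, 24 and 72 h. At 4 h its signal was 1748, 1554 and 1811 in injured cortex, against 1365 and 1505 in sham (log2 difference 0.25 ± 0.13, adjusted p = 0.6). The 3 injury arrays lay above both sham arrays at this time. At 8 h it was 1140, 1086 and 1252 after injury, against 1519 and 1670 in sham (-0.46 ± 0.13, adjusted p = 0.03). At 24 h it was 1000, 1089 and 1100, against 1480 and 1692 (-0.57 ± 0.13, adjusted p = 0.00581), and at 72 h 1138, 995 and 1115, against 1552 and 1680 (-0.58 ± 0.13, adjusted p = 0.00409). Each injury array from 8 h on lay below every sham array of its time and below both naive arrays (1521 and 1642). Injury signal was thus 0.727, 0.671 and 0.669 times that of sham at 8, 24 and 72 h. The injury effect at 72 h was lower than at 4 h by itself (difference of differences -0.83 ± 0.18, adjusted p = 0.00965). That comparison called 5.22% of all genes. It includes the sham 4 h arrays with high pituitary hormone signal (Sdha 1365 and 1505), whose part was not tested.

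The other subunits of complex II were not called at any time. Sdhb, the iron-sulfur subunit that takes electrons from Sdha, had 5885, 5100 and 5760 in injured cortex at 72 h, against 4671 and 5288 in sham (0.16, adjusted p = 0.458). The membrane anchors Sdhc and Sdhd were at 0.24 (adjusted p = 0.392) and 0.11 (adjusted p = 0.746) at 72 h. Their 8 h differences were -0.11 for Sdhb, 0.00 for Sdhc and 0.09 for Sdhd. The calls for Sdha at 8, 24 and 72 h were each lost when a single array was left out. They were also lost when only the compared groups entered the fit (adjusted p = 0.146, 0.0986 and 0.0878). With a block for the letter in the sample titles the 8 h value was -0.39 (adjusted p = 0.125), while the 24 and 72 h calls were kept (adjusted p = 0.045 and 0.0368). Without sham 24 h replicate 1d the 24 h value was -0.48 (adjusted p = 0.128), and the 8 h adjusted p ran up to 0.18 without sham 8 h replicate 1c. At 72 h, without sham replicate 1d, the value was -0.52 (adjusted p = 0.0512), and set against all sham and naive arrays it was -0.53 (adjusted p = 9.62e-05).

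Among the 13 tested genes of complex V, 4 fell at 1 time each, and the median was -0.08 at 4 h, -0.02 at 8 h, 0.06 at 24 h and 0.01 at 72 h. Atp5g2 encodes subunit c, which forms the rotor ring of ATP synthase. Its signal at 8 h was 688, 809 and 795 in injured cortex, against 1252 and 1228 in sham (-0.70 ± 0.14, adjusted p = 0.00343). At 4 h it was 1154, 1242 and 1384 after injury, against 1085 and 1119 in sham, and its differences were -0.17 at 24 h and 0.03 at 72 h. The gene was called at 8 h alone, and the 8 h injury values lay below the naive values of 900 and 857 too. Another probe set of Atp5g2 gave -0.18 at 8 h, and the mean of its probe sets gave -0.44 (adjusted p = 0.109). The call was kept without each single array, at adjusted p between 0.00753 and 0.0471.

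Atp5c1, the gamma subunit of the central stalk, had 7329, 6154 and 7339 at 8 h after injury, against 9919 and 9007 in sham (-0.45 ± 0.13, adjusted p = 0.0376). Another probe set gave -0.48. The naive arrays were at 6271 and 7201, so the injured values overlapped naive and the 8 h sham arrays stood above both. Against all sham and naive arrays the difference was -0.17 (adjusted p = 0.383).

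At 72 h the falls in complex V were in Atp5d, the delta subunit of the central stalk, and Atp5k, the small membrane subunit e. Atp5d had 1461, 1115 and 1381 in injured cortex, against 1770 and 2585 in sham (-0.71 ± 0.19, adjusted p = 0.0139), and its 4 other probe sets gave -0.49, -0.52, -0.14 and -0.40. Atp5k had 496, 439 and 469, against 629 and 959 (-0.73 ± 0.21, adjusted p = 0.0221), with naive at 427 and 437. The lower of the 2 sham arrays was nearer the injured values for both genes, and Atp5k after injury was close to, and slightly above, the naive values. Atp5o, the peripheral stalk protein that joins stator and head, was lowest at 4 h, with 2850, 3281 and 2652 after injury, against 4028 and 5124 in sham (-0.64 ± 0.17, adjusted p = 0.111). Atp5a1, the alpha subunit of ATP synthase, stayed between -0.27 and -0.07 at the 4 times with no call.

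Complex IV showed the widest leaning to lower values, with 11 of its 12 tested genes below zero at 4 h (median -0.16) and at 72 h (median -0.15). Cox6a2, the form of subunit 6a typical of heart and skeletal muscle, had the largest fall of the chain at 72 h. Its signal was 473, 541 and 376 in injured cortex, against 806 and 1409 in sham (-1.22 ± 0.23, adjusted p = 0.00101), with naive at 742 and 1002. Injury signal was 0.430 times sham, and all injured arrays lay below all sham and naive ones. Its differences at 4, 8 and 24 h were -0.02, -0.05 and -0.21, and the injury effect at 72 h was lower than at 4 h (-1.20 ± 0.32, adjusted p = 0.0361). The widely expressed form, Cox6a1, had 17309, 17336 and 14131, against 15564 and 18257 at 72 h (-0.06, adjusted p = 0.903), and the difference between the 2 forms was not tested. Cox8b, another muscle form, was at -0.10 (adjusted p = 0.819).

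Skeletal muscle markers were set beside these values because some of these forms are typical of muscle. These markers include Pvalb, which is not confined to muscle, so their sum does not measure muscle tissue alone. Their summed signal at 72 h was 6596.7 to 7203.3 in injured cortex, against 7948.4 to 10153 in sham, and 1 of 7 tested markers fell, the skeletal actin Acta1 (-0.96 ± 0.22, adjusted p = 0.00518). Microglia and macrophage markers summed to 47574 to 60359 after injury, against 12245 to 12712 in sham, and 11 of 12 rose. Neuronal markers summed to 51619 to 55106, against 51970 to 70773, and 1 of 11 fell (the synaptic vesicle gene Syp, -0.56). At 8 h neuronal markers were 57560 to 62531, against 62387 to 63624, and at 24 h 54368 to 64084, against 54402 to 62080, with 0 of 11 called at either time and 1 of 11 at an unadjusted p below 0.05 at each. Markers of other cells rose at these times too. At 8 h 5 of 12 microglia and macrophage markers, 2 of 6 oligodendrocyte, 3 of 8 endothelial and 2 of 3 red cell markers rose, and 2 of 7 astrocyte markers fell. At 24 h 8 of 12 microglia and macrophage, 2 of 6 oligodendrocyte and 3 of 8 endothelial markers rose, with 1 of 7 astrocyte markers higher and 1 lower. At 72 h 4 of 6 oligodendrocyte, 4 of 8 endothelial and 2 of 7 astrocyte markers rose. The part of these cell types in the values of the chain was not tested.

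Cox6c, a small subunit of complex IV, had 11601, 10815 and 12151 at 72 h after injury, against 13505 and 19381 in sham (-0.49 ± 0.15, adjusted p = 0.0346). Its injury arrays lay below its sham arrays at all 4 times, but the naive arrays, at 12302 and 11566, overlapped the injured ones. The 2 other probe sets of Cox6c gave -0.79 and 0.03. Cox7a2l, a protein that helps join complexes III and IV into supercomplexes, was lowest at 24 h with 1655, 2444 and 2382, against 2954 and 3085 (-0.50 ± 0.20, adjusted p = 0.129). Cox6b2, a form of subunit 6b known from testis, was at -0.67 ± 0.41 at 4 h (adjusted p = 0.694).

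**Figure D2:**
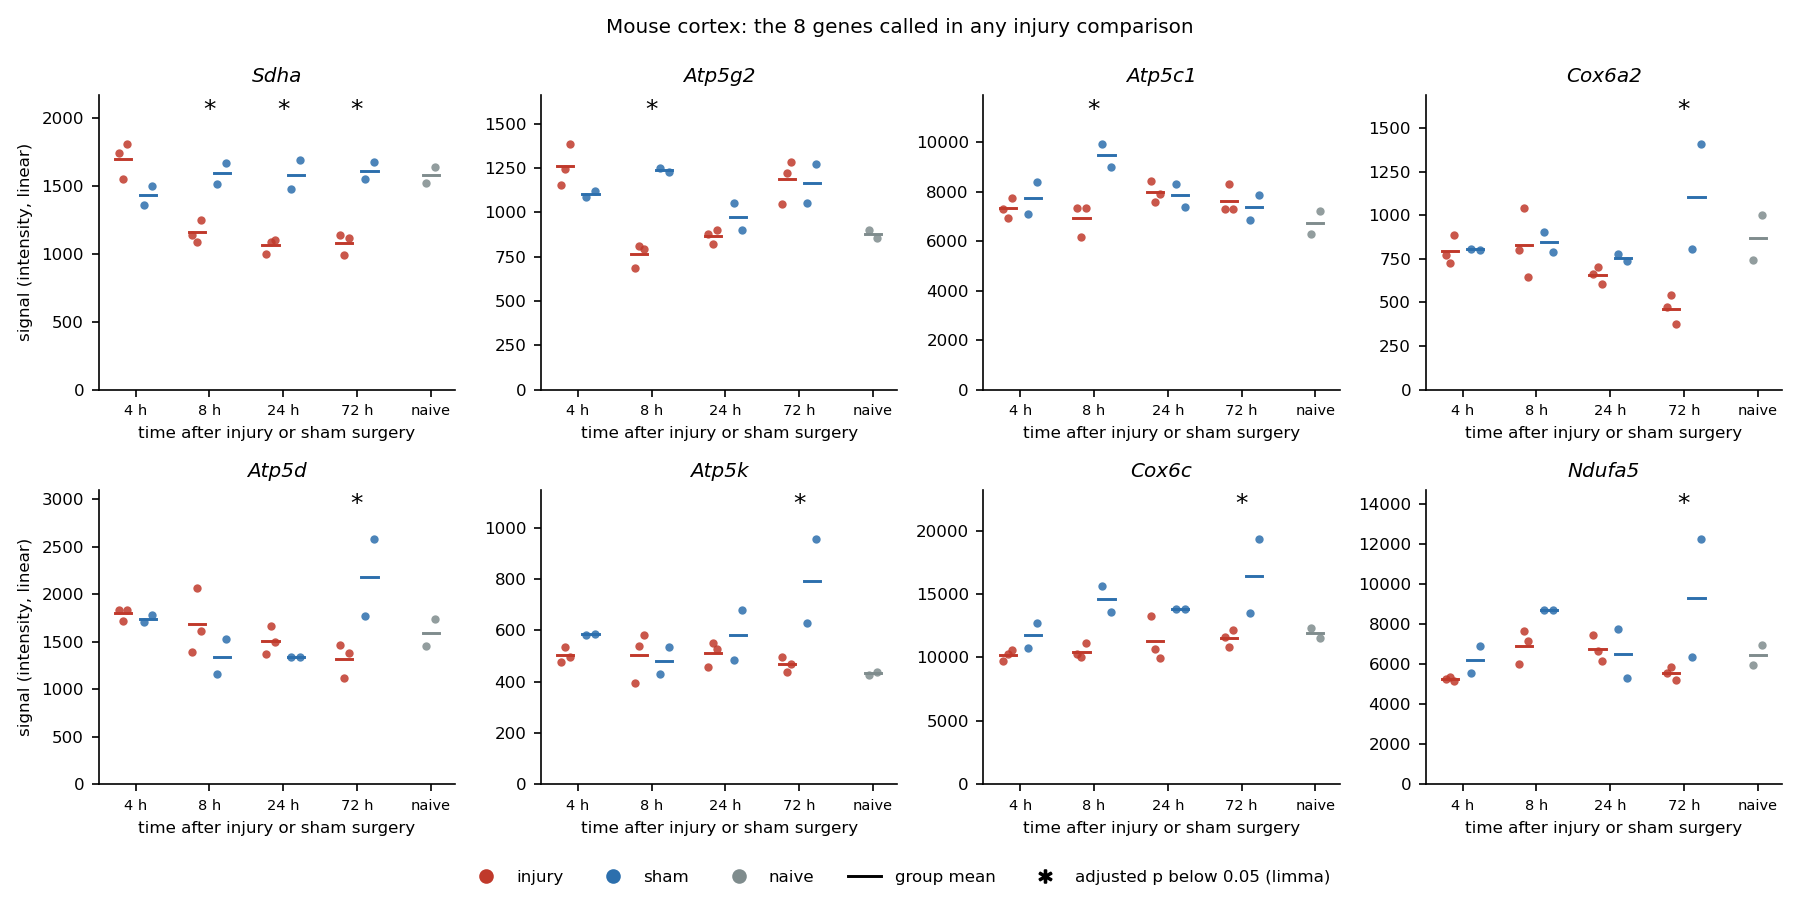
Deposited signal (linear, vertical axis) of the 8 mouse genes that fell after injury, one point per array by time, with injury (red) left of sham (blue) and naive (grey); bars are group means and asterisks mark an adjusted p below 0.05. Sdha separates at 8, 24 and 72 h, while the 72 h sham arrays of Ndufa5 spread over 6324 and 12256.

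Of the 28 tested genes of complex I only Ndufa5 was called, at 72 h. This accessory subunit of the arm that oxidises NADH had 5527, 5869 and 5212 in injured cortex, against 6324 and 12256 in sham (-0.67 ± 0.21, adjusted p = 0.0347), and naive arrays were at 5949 and 6931. The injured values lay just below the lower sham array, and the higher sham array stood far above all others. Ndufs1, the large iron-sulfur subunit near the entry of electrons, had 2511, 2411 and 2372 at 8 h, against 3251 and 3332 in sham (-0.44 ± 0.16, adjusted p = 0.0999), and 0.16 at 72 h. Ndufa1, a small membrane-arm subunit, had the lowest difference of any chain gene at 8 h with 153, 64 and 94, against 188 and 210, close to the dim limit (-1.03 ± 0.58, adjusted p = 0.312). Ndufb5 had no call and differences between -0.30 and 0.18. The complex I median was -0.06 at 24 h and -0.12 at 72 h, with 19 of 28 genes below zero at 72 h.

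No gene of complex III was called, and its largest values were upward. Uqcrb, the ubiquinone-binding subunit, had 2015, 2777 and 1630 at 72 h, against 1695 and 1101 in sham (0.61 ± 0.22, adjusted p = 0.0642). Uqcrc1, a core subunit, had 5355, 6989 and 5403 at 8 h, against 3834 and 4521 (0.50 ± 0.20, adjusted p = 0.143). The injured arrays of Uqcrc1 lay above sham, and those of Uqcrb overlapped it. Uqcrq differed by -0.22 to 0.22 over the 4 times.

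The 72 h calls in the mouse, that of Sdha among them, depended on 1 sham array. Without sham 72 h replicate 1d none of the 66 genes was called, and without sham 72 h replicate 1c 17 were. Without 1d, Cox6a2 was at -0.82 (adjusted p = 0.054), Atp5d at -0.43 (0.269), Atp5k at -0.43 (0.342), Cox6c at -0.23 (0.484) and Ndufa5 at -0.19 (0.646). The median of the 66 genes relative to uninjured arrays was 0.27 on 1d, against -0.11 on 1c, and the actin 3′ to 5′ probe ratio was 3.83, against 1.29. The GAPDH 3′ to 5′ ratio of 1d lay within the range of the other mouse arrays, so it did not set 1d apart. The actin ratio differed elsewhere too, and every mouse injury 4 h array lay below both sham 4 h arrays. The part of RNA quality in the 72 h values was not tested. Set against all 10 sham and naive arrays, Sdha and Cox6a2 alone remained called at 72 h (Cox6a2 -0.91, adjusted p = 0.000269).

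**Figure D3:**
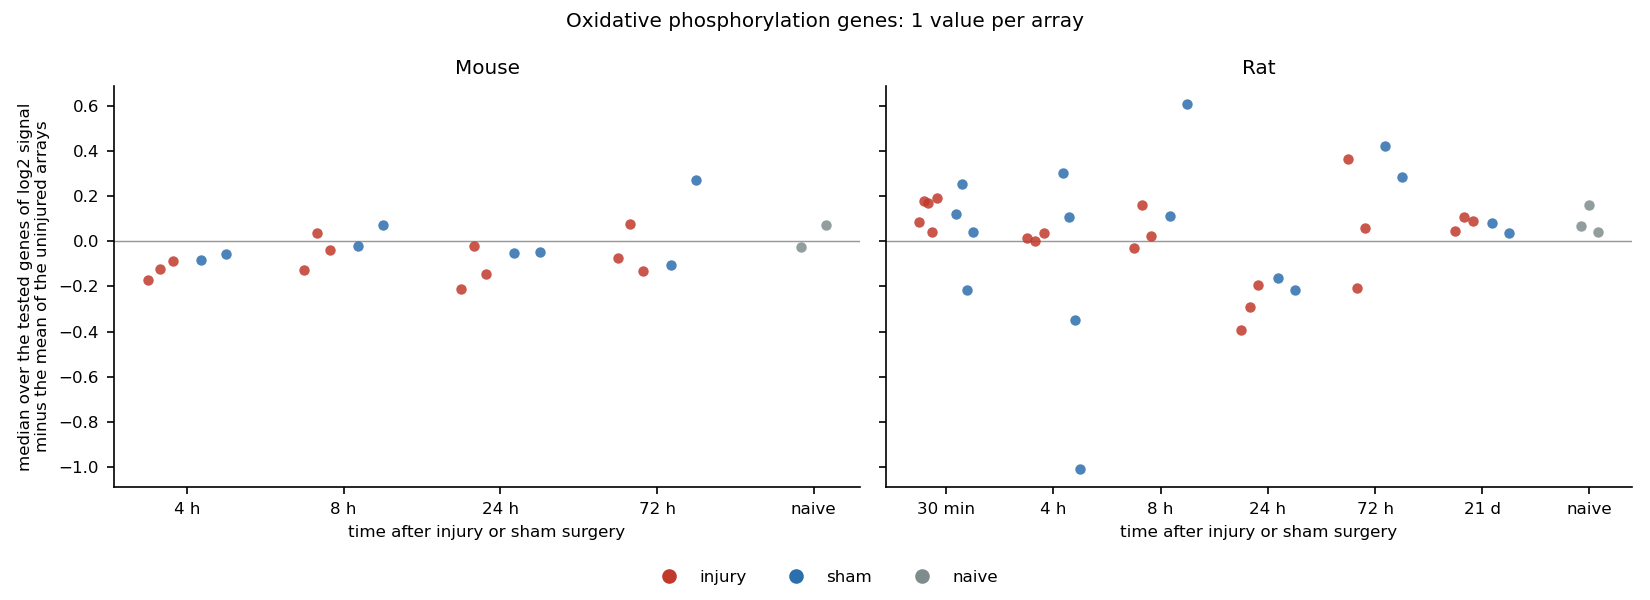
For each array, the median over the tested chain genes of log2 signal minus the mean of uninjured arrays (vertical axis), by group, injury left of sham. The mouse sham 72 h replicate 1d lies at 0.27, and the rat sham 4 h replicate 4 lies lowest of the rat 4 h arrays at -1.01.

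Sham surgery by itself called none of the chain genes against naive cortex in either species. In mouse 10 of 66 had an unadjusted p below 0.05 (median -0.02), against 650 of all 6355 genes, and 0.11% of all genes were called. In rat 0 of 54 had such a p, against 218 of all 4091 genes, with 0.0244% of all genes called. Without the 4 arrays that stood apart 3 of 54 had it, against 307 of 3920.

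In rat cortex few chain genes passed the test, and those that did at 4 h rested on arrays that stood apart. Called genes numbered 0 at 30 min, 2 at 4 h and 0 at 8, 24 and 72 h and 21 d. Of all 4091 genes 0.0244%, 4.99%, 0.709%, 0.269%, 2.76% and 0% were called at these times, and at 4 h 2.93% were higher and 2.05% lower. At an unadjusted p below 0.05 the counts were 1, 13, 9, 0, 5 and 0 of 54. Among all 4091 genes they were 132, 1195, 337, 199, 609 and 50. Without the 4 arrays the counts of called genes were 0, 0, 1, 0, 2 and 0, against 0%, 1.12%, 1.86%, 0.867%, 10.1% and 0% of all 3920 genes that then passed the filter. The median over the 54 genes was 0.03 at 30 min, 0.21 at 4 h, -0.34 at 8 h, -0.14 at 24 h, -0.29 at 72 h and 0.07 at 21 d. Over all genes it was -0.03, -0.12, 0.06, 0.00, 0.07 and -0.03.

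The 4 h values in rat turned on sham replicates 3 and 4. Atp5f1b had 13061, 13446 and 12684 in injured cortex, against 13062, 8215, 3584 and 1489 in sham (1.42 ± 0.38, adjusted p = 0.0368). The injured arrays were alike, the 4 sham arrays spread widely and overlapped them, and without the 4 arrays the difference was 0.33 ± 0.24 (adjusted p = 0.698). Cox7a2l had 2003, 2469 and 3413, against 4608, 2779, 7225 and 4188 (-0.79 ± 0.23, adjusted p = 0.0467), and -0.48 (adjusted p = 0.465) without them, and another of its probe sets gave 0.18. Uqcr11, the smallest subunit of complex III, had 10647, 11415 and 11724, against 12017, 11539, 1415 and 702 (1.72, adjusted p = 0.0608), and -0.07 without them. Atp5pd, the peripheral stalk subunit d, had 4017, 3203 and 4060, against 4219, 4282, 522 and 79 (2.01 ± 0.68, adjusted p = 0.065), and -0.19 (adjusted p = 0.862) without them. Leaving the 4 arrays out thus turned the sign for Uqcr11 and Atp5pd.

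The 4 h median over the 54 genes was -0.17 without the 4 arrays, with 38 genes below zero, against 0.21 and 22 genes below zero with all arrays. Complex I went the same way, with a median of -0.25 without them and 0.31 with them. All injury arrays lay below all sham arrays for 2 of 54 genes (3.7%, against 6.33% of all genes) and above for 1 (1.85%, against 5.48%). Without the 4 arrays these were 14 (25.9%, against 15%) and 3 (5.56%, against 15.8%). Cox5a, a nuclear subunit of complex IV, was lower with 227, 257 and 169, against 489, 564, 788 and 962 (-1.66 ± 0.52, adjusted p = 0.0534), and -1.29 (adjusted p = 0.463) without them. Cox4i2, the form of subunit 4 known for its link to low oxygen, had 1879, 1249 and 1227, against 919, 970, 934 and 230 (1.10), and 0.59 (adjusted p = 0.865) without them.

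At 30 min Cox4i2 had 1258, 1839, 972, 3533 and 301 after injury, against 1705, 847, 1354 and 53 in sham (1.07 ± 0.63, adjusted p = 1). The difference was 1.99 (adjusted p = 1) without the 4 arrays and -0.07 without sham replicate 4, the array at 53, so it rested on that array. No gene at 30 min had all injury arrays on either side of sham, against 0.293% of all genes below and 0.367% above. Without the 4 arrays 1 of 54 lay below (1.85%, against 1.3%) and 0 above, against 1.22%.

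At 8 h after fluid percussion the rat complexes did not lie together: complexes I, III and V leaned down and complex IV up, with no gene passing the test. All injury arrays lay below all sham arrays for 27 of 54 genes (50%, against 17.5% of all genes) and above for 5 (9.26%, against 19.5%). The 27 comprised 15 of 26 genes of complex I, all 3 of complex III, 5 of 10 of complex V, 2 of 13 of complex IV, Sdha and Ndufaf3. Of the 5 above, 4 belonged to complex IV. Complex medians were -0.43 for I, -0.48 for III, -0.37 for V and 0.30 for IV, whose genes ran from -1.21 to 1.24. Of the 2 sham arrays at 8 h, replicate 2 had a chain-gene median of 0.61 relative to uninjured arrays and replicate 1 had 0.11, and the part of that array was not tested.

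Ndufa6 had 2294, 2705 and 2596 in injured cortex at 8 h, against 3433 and 5140 in sham (-0.73 ± 0.24, adjusted p = 0.244). Without the 4 arrays, which are not part of this time, the pooled spread was smaller and the same difference had an adjusted p of 0.047, the only 8 h call. Another probe set of Ndufa6 gave 0.43. Ndufc2, a membrane-arm subunit, had 1808, 2355 and 2388, against 3052 and 5217 (-0.88 ± 0.37, adjusted p = 0.492), and the complex III core subunit Uqcrc2 had 2458, 2828 and 2684, against 3770 and 5526 (-0.78 ± 0.35, adjusted p = 0.532). For each of these genes the injured arrays were close to each other and below both sham arrays, of which the higher was replicate 2. Naive rats had 2289, 2379 and 2528 for Ndufa6, 4940, 4352 and 3963 for Ndufc2, and 1967, 1918 and 3081 for Uqcrc2. The injured values of Ndufa6 and Uqcrc2 thus overlapped naive, and both sham arrays stood above it. For Ndufc2 the injured values lay below naive.

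The upward genes of complex IV at 8 h were led by Cox8a, a small membrane subunit, with 21511, 21475 and 21315 after injury, against 8048 and 10201 in sham (1.24 ± 0.48, adjusted p = 0.421). Cox4i1, the common form of subunit 4, had 17482, 17111 and 13890, against 8845 and 7315 (0.999 ± 0.46, adjusted p = 0.543). Cox6a1 had 17924, 18490 and 16905, against 10648 and 11575 (0.68, adjusted p = 0.646). Injured values lay far above sham in these 3 genes. Naive rats had 20555, 21091 and 14030 for Cox8a, 20127, 18489 and 15678 for Cox4i1, and 15319, 15459 and 11161 for Cox6a1. The injured values of Cox8a lay just above the naive ones, those of Cox4i1 overlapped them and those of Cox6a1 lay above them. Both 8 h sham arrays lay below all naive arrays for Cox8a and Cox4i1, and overlapped them for Cox6a1. The probe sets of these 3 genes did not all lie above sham. The other probe sets of Cox8a gave -0.06, 0.40 and 1.35, those of Cox4i1 0.68 and -0.22, and those of Cox6a1 -0.79 and 0.44. Cox6c was lower, with 654, 635 and 474, against 1050 and 1733 (-1.21 ± 0.50, adjusted p = 0.464), while its other probe set gave 2.29. Neuronal markers summed to 56045 to 60730 in injured cortex at 8 h, against 56066 to 57855 in sham, and 0 of 10 were called, with 0 at an unadjusted p below 0.05. Other lists did separate at 8 h. Astrocyte markers summed to 61200 to 68434, against 35887 to 42763 (0 of 7 called), oligodendrocyte markers to 45502 to 50756, against 35676 to 39425 (0 of 6 called), and red cell markers to 36381 to 47039, against 11127 to 16728, with 1 of 3 rising (2 without the 4 arrays). The part of these cell types in the 8 h values was not tested.

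**Figure D4:**
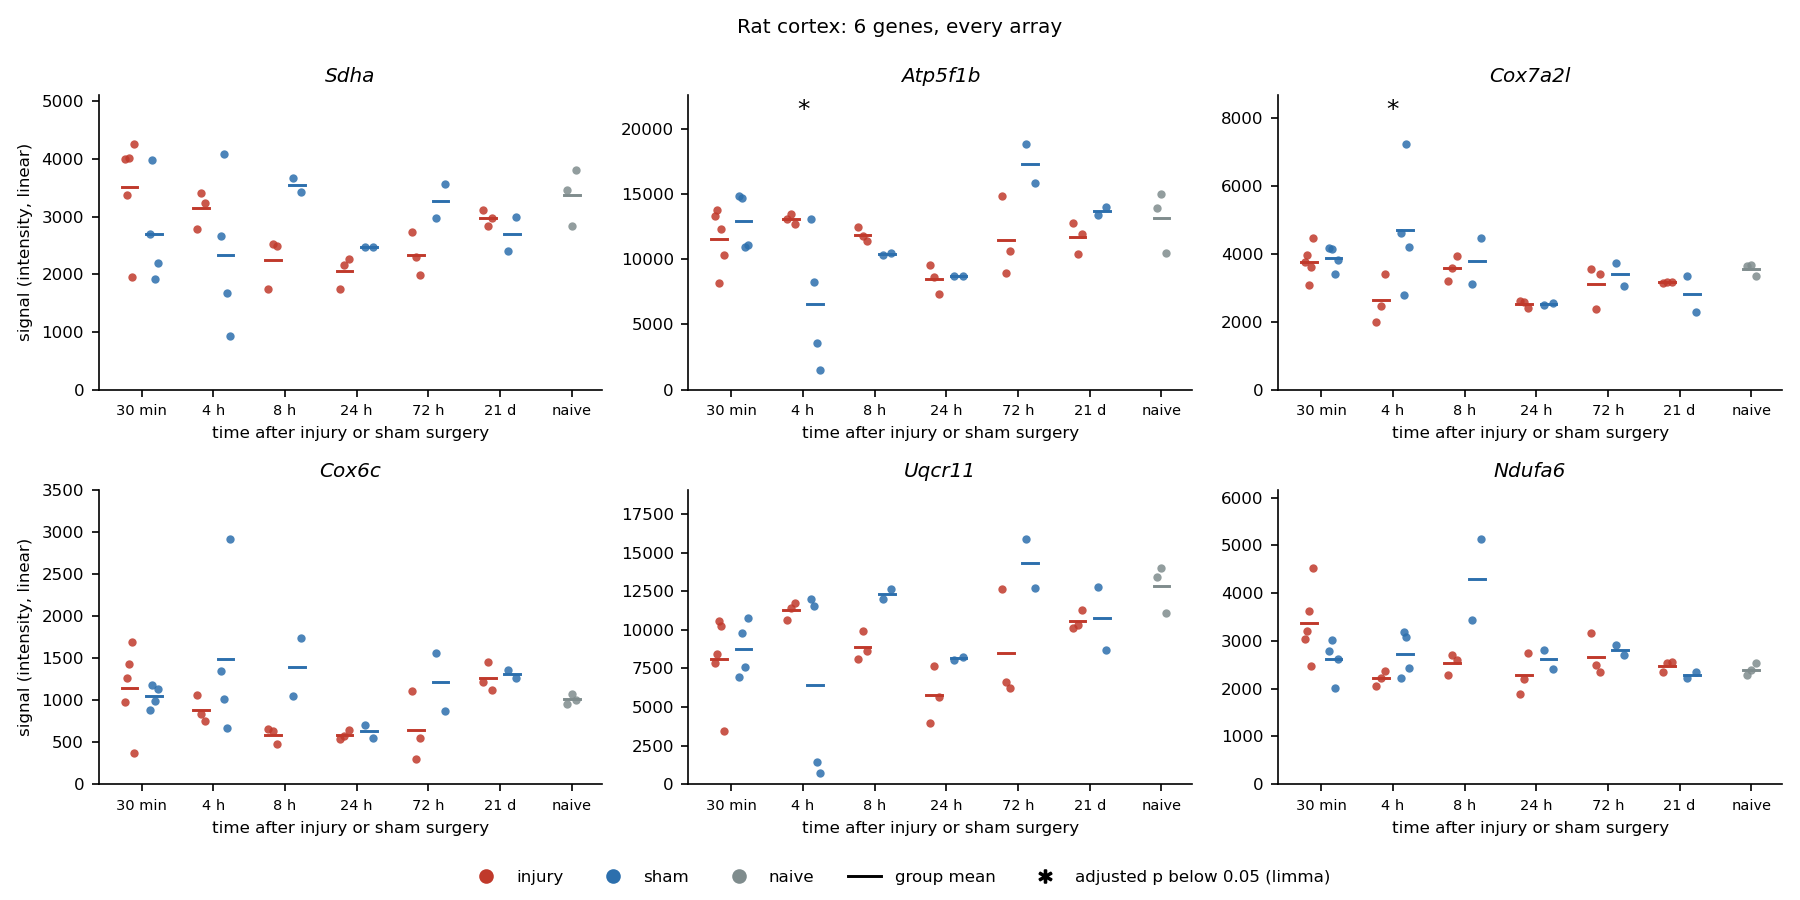
Deposited signal (linear, vertical axis) of 6 rat genes, one point per array by time, with injury (red) left of sham (blue) and naive (grey); bars are group means and asterisks mark an adjusted p below 0.05. The sham 4 h arrays of Atp5f1b and Uqcr11 spread widely, from 1489 to 13062 and from 702 to 12017.

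Rat Sdha was lower after injury at 8, 24 and 72 h, at the same times as in the mouse, but no difference passed the test. It had 1737, 2524 and 2492 at 8 h, against 3664 and 3431 in sham (-0.68 ± 0.38, adjusted p = 0.694). At 24 h it had 1737, 2151 and 2264, against 2463 and 2465 (-0.27, adjusted p = 1), and at 72 h 2739, 2294 and 1980, against 2981 and 3571 (-0.49 ± 0.38, adjusted p = 0.604). All injured arrays lay below all sham arrays at these 3 times. With the 4 arrays left out the adjusted p was 0.196 at 8 h and 0.243 at 72 h. At 4 h it had 2782, 3412 and 3231, against 2654, 4086, 1680 and 926 (0.63, or -0.07 without the 4 arrays), at 21 d it was at 0.15, and naive rats had 3454, 2836 and 3814.

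At 24 h 42 of the 54 rat genes were below zero, and all injury arrays lay below all sham arrays for 9 (16.7%, against 15.7% of all genes) and above for 2 (3.7%, against 16.4%). The complex medians were -0.14 for I, -0.19 for IV and -0.07 for V, and the outermost genes were Ndufv3 (-0.75) and Ndufa9 (0.30), both of complex I. All 24 h arrays had chain-gene medians below the mean of the uninjured arrays, between -0.39 and -0.19 after injury and at -0.17 and -0.21 in sham. Neuronal markers were also lower, at 32504 to 44671, against 51670 to 52383 in sham, with 0 of 10 called and 1 at an unadjusted p below 0.05, and oligodendrocyte markers were at 21470 to 31071, against 35100 to 40667. Their part in the chain values was not tested.

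At 72 h 44 of the 54 rat genes were below zero, and the median of complex V was -0.44, with 9 of 10 genes below zero, against -0.25 for complex I, -0.18 for III and -0.29 for IV. All injury arrays lay below all sham arrays for 12 genes (22.2%, against 15.1% of all genes) and above for 2 (3.7%, against 19%). Uqcr11 had 12617, 6646 and 6256 in injured cortex, against 15917 and 12689 in sham (-0.82 ± 0.67, adjusted p = 0.642), and without the 4 arrays the standard error was 0.26 and the adjusted p 0.0434, with another probe set at -0.97. Cox6c had 1106, 293 and 544, against 1563 and 866 (-1.05 ± 0.50, adjusted p = 0.303), and 0.0483 without the 4 arrays, but its other probe set gave 2.02. Atp5f1b had 14827, 8950 and 10588, against 18818 and 15808 (-0.62, adjusted p = 0.581). In Uqcr11 and Atp5f1b the first injury replicate lay close to sham and the other 2 well below it.

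Measures of array quality moved with these 72 h values. Injury replicates 1, 2 and 3 had GAPDH 3′ to 5′ ratios of 1.47, 0.709 and 0.655, against 1.62 and 1.14 in sham. Their median correlation with other arrays was 0.887, 0.818 and 0.846, against 0.919 and 0.920, and their median signal 261, 390 and 326, against 257 and 280. Their chain-gene medians relative to uninjured arrays were 0.36, -0.21 and 0.06, against 0.42 and 0.28. Replicate 1 was thus nearest to sham on each of these measures, and their part in the values was not tested.

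A few rat genes went the other way at 72 h. Ndufs1 had 260, 842 and 394 after injury, against 243 and 227 (0.91, adjusted p = 0.36). Rat Cox6a2 was at 1843, 1937 and 1245, against 1931 and 1461 (-0.03), beside the fall called in the mouse at this time. Neuronal markers summed to 24308 to 52082 in injured cortex at 72 h, against 72461 to 80293 in sham, and 3 of 10 fell (8 without the 4 arrays). Microglia and macrophage markers were 22811 to 30566, against 11516 to 12336, and 3 of 8 rose. Oligodendrocyte markers were 26081 to 36141, against 44982 to 46925, and 0 of 6 were called (1 lower without the 4 arrays). Neuronal and oligodendrocyte sums were thus below sham in all injured arrays at 72 h, and their part in the chain values was not tested.

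At 21 d the rat genes lay near or slightly above sham, with 20 of 54 below zero (37.0%, against 54.1% of all genes) and no call. No test compared 21 d with the earlier times. All injury arrays lay above all sham arrays for 12 genes (22.2%, against 9.83% of all genes) and below for 2 (3.7%, against 12.8%), and 11 of the 12 belonged to complex I (median 0.17). The highest was Ndufa8 at 0.64, a complex I subunit on the intermembrane side, and the lowest Cox6c-ps1 at -0.44. Ndufa8 had 3792, 4395 and 4923 after injury, against 3654 and 2132 in sham, and its injured values overlapped naive (2331, 4613 and 4601). Chain-gene medians relative to uninjured arrays overlapped too. They were 0.04, 0.11 and 0.09 after injury, 0.08 and 0.03 in sham, and 0.07, 0.16 and 0.04 in naive rats. The part of the single sham arrays was not tested. At the earlier times complex I had been below zero for 22 of 26 genes at 8 h, 20 at 24 h and 19 at 72 h.

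The injury effect at 72 h set against that at 4 h had a rat median of -0.74 over the chain genes, against 0.23 over all genes, and -0.13 without the 4 arrays. It called 1 of 54 genes, Atp5f1b (-2.04 ± 0.59, adjusted p = 0.0429), and 4.72% of all genes. Without the 4 arrays Atp5f1b was at -0.96 (adjusted p = 0.105) and no chain gene was called. Of the neuronal markers 4 of 10 were called lower in the same comparison, and their part was not tested. In mouse the median of this comparison was -0.06, and Sdha and Cox6a2 were the 2 called.

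Genes that feed, build or regulate the chain were followed in 5 related lists: the TCA cycle with pyruvate dehydrogenase (15 tested in mouse, 10 in rat), assembly and copper delivery (7 and 2), carriers (13 and 9), biogenesis regulators (12 and 4), and uncoupling and mitochondrial stress (10 and 10). No TCA cycle gene on its list was called in mouse at any time, and no assembly gene in either species. At an unadjusted p below 0.05 the TCA list had 1, 4, 2 and 2 of 15 mouse genes at 4, 8, 24 and 72 h, and the assembly list had 0, 1, 0 and 1 of 7. Among all 6355 mouse genes 576, 1398, 1515 and 1729 had such a p at these times. Of all mouse genes 3.27%, 4.5% and 5.68% were called lower at 8, 24 and 72 h, and 6.2% and 9.85% higher at 24 and 72 h. The list calls were not tested against these shares. In mouse at 8 h 3 genes of these lists fell. Gpd2, the mitochondrial glycerol-3-phosphate dehydrogenase that passes electrons to ubiquinone, was at -1.32 ± 0.23 (adjusted p = 0.00116), the transcription factor Sp1 at -1.13 ± 0.28 (adjusted p = 0.0169) and the chaperonin Hspd1 at -0.52 ± 0.11 (adjusted p = 0.00343). Nfe2l2, the transcription factor of the oxidative stress response, rose at 24 h (0.96 ± 0.21, adjusted p = 0.00535) and 72 h (1.28 ± 0.21, adjusted p = 0.00032). Slc25a14, a mitochondrial carrier of the uncoupling protein family, fell at 24 h (-0.84 ± 0.22, adjusted p = 0.0163) and 72 h (-0.99 ± 0.22, adjusted p = 0.00376).

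At 72 h in mouse the ADP/ATP carrier Slc25a5 also rose (0.75 ± 0.23, adjusted p = 0.0335) and the transcription factor Yy1 fell (-0.73 ± 0.19, adjusted p = 0.0115). Of all rat genes 4.99%, 0.709% and 2.76% were called at 4, 8 and 72 h (1.12%, 1.86% and 10.1% without the 4 arrays). In rat the uncoupling protein Ucp2 rose at 72 h (1.59 ± 0.45, adjusted p = 0.0479, and 0.0195 without the 4 arrays). The manganese superoxide dismutase Sod2 rose at 8 h (1.50 ± 0.36, adjusted p = 0.0372, and 0.0149 without them). At 4 h in rat Idh3g, a subunit of the NAD-dependent isocitrate dehydrogenase, was called higher at 1.62 ± 0.47 (adjusted p = 0.0436) and Gpd2 lower at -1.59 ± 0.38 (adjusted p = 0.0191). Without the 4 arrays these were 0.35 (adjusted p = 0.756) and -0.69 (adjusted p = 0.496), so neither call was kept.

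Between species 33 chain genes shared a symbol and were tested in both. At 72 h 21 were below zero in both, 3 above zero in both and 9 on opposite sides. Pearson's r across these genes was 0.29 and Spearman's rho 0.34. At 24 h 16 were below zero in both and 15 on opposite sides (r = 0.19, rho = 0.13). At 8 h these were 15 and 17 (r = 0.10, rho = 0.02), and at 4 h 9 and 22 (r = -0.02, rho = -0.07). The 4 h tally turned on the rat arrays that stood apart: without them 21 genes were below zero in both, 2 above zero in both and 10 on opposite sides (r = -0.05, rho = 0.04). These are descriptions across genes, which share the arrays of their species and are not independent replicates, and injury model, pooling and array also differ between the species. Sdha (-0.58 in mouse and -0.49 in rat) and Cox6c (-0.49 and -1.05) were low in both at 72 h, while Cox6a2 was at -1.22 in mouse and -0.03 in rat, a difference between species that was not tested.

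**Figure D5:**
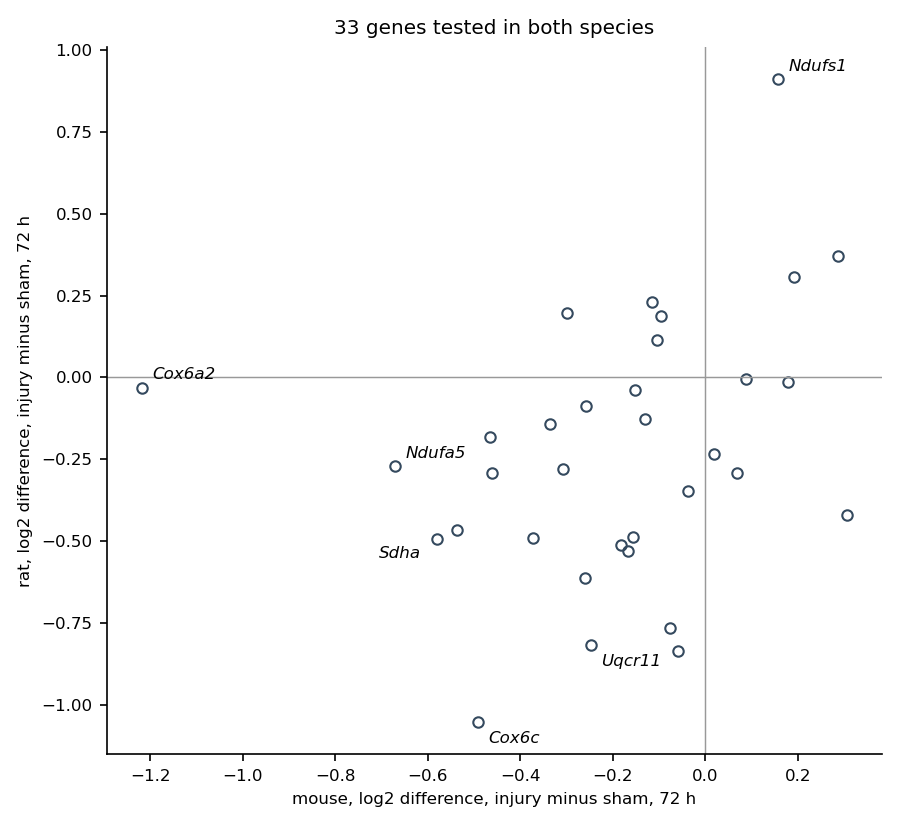
Log2 differences (injury minus sham) at 72 h of the 33 genes with the same symbol, mouse on the horizontal and rat on the vertical axis. Most points, 21 of 33, lie below zero in both species, with Cox6a2 at -1.22 in mouse and -0.03 in rat.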

How the data were processed

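The authors deposited 1 linear intensity per probe set and array, for 12488 mouse and 8799 rat probe sets on 22 and 39 arrays; the software that made these values is not given in the sources used here. Values under the 10th percentile of all arrays of a species (24.1 for mouse, 32.1 for rat) were set to it before log2 was taken. Controls (66 and 59) and those with several symbols (396 and 308) or none (1193 and 1426) were not tested. Probe sets above the pooled 40th percentile (193 and 202) in at least 3 arrays passed, which left 6355 mouse and 4091 rat genes, each with the probe set of the highest mean. limma 3.58.1 in R 4.3.3 fitted 1 mean per group and species with moderated variances and a mean trend, with 13 and 26 residual degrees of freedom. Adjusted p-values are Benjamini-Hochberg values over all genes tested in a comparison. Array number limits the precision.

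Groups came from the sample labels. Each sham array counted as 1 sample, although mouse labels do not say whether lettered sham arrays came from separate pools, so p-values measure the spread between arrays. Numbers in the titles were not taken to pair samples, a question that the correlations of deviations could not settle. These ran from -0.052 to 0.052 over 8 mouse pairs and from -0.411 to 0.358 over 15 rat pairs. Members and lists were chosen with earlier results of these data known. Named genes were all called members, the largest difference each way per comparison, the brightest of each complex, muscle-type and second isoforms, and genes with several probe sets; of the related lists, called genes. Alternatives were the floor, filter, quantile normalization, mean of probe sets, replicate blocks, other control sets, only the compared groups, and each array left out. The fit was tested on simulated data.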

Additional observations from a re-analysis of the deposited data

Results flagged for a closer look

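In rat 2 single arrays lay far from the rest of their group, which chance gives in about 1 of 20 groups examined. Ndufa8 was at log2 11.567 in injury 30 min replicate 5, with the nearest array of that group at 12.077. Cox4i2 was at log2 7.8463 in sham 4 h replicate 4, with the nearest at 9.8441. Both arrays are among the 4 rat arrays that stood apart from the others.

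The injury effect differed between 72 h and 4 h, by a test of the difference itself in limma, for 3 chain genes. In mouse Cox6a2 differed by -1.195 and Sdha by -0.82653 on the log2 scale, and in rat Atp5f1b differed by -2.0395. The Sdha call was lost without sham 4 h replicate 1b (-0.76, adjusted p = 0.0573), the Cox6a2 call without sham 72 h replicate 1d (-0.79, adjusted p = 0.229), and the Atp5f1b call without the 4 arrays (-0.96, adjusted p = 0.105).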

How the results depend on the processing

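Of 1380 recomputed values over 177 results, 1188 kept their direction and their side of the threshold or stayed within the spread. Of the rest, 91 lost the call, 28 gained one, 72 counts or untested values shifted beyond the spread and 1 was labelled reversed. That label does not count every change of sign. In rat, Atp5pd at 4 h changed sign without the 4 arrays, and Cox6c at 72 h minus 4 h with the mean of probe sets. Counts of called genes in mouse were as follows. At 4 h (0) they were 1 after quantile normalization and 5 against all sham and naive arrays. At 8 h (3) they were 1 with a block for the letter in the titles, 1 with only the compared groups in the fit, and 1 to 3 with single arrays left out. At 24 h (1) they were 2 after quantile normalization, 4 against all controls, 0 with only the compared groups and 0 to 1 with single arrays left out. At 72 h (6) they were 2 against all controls, 2 with the letter block, 1 with only the compared groups and 0 to 17 with single arrays left out. For 72 h minus 4 h (2) they were 1 without the filter and 0 to 8 with single arrays left out. In rat at 4 h (2) they were 1 without the filter, 4 with the mean of probe sets, 1 with the title number as a replicate block, 0 against all controls, 0 without the 4 arrays, 0 with only the compared groups, and 0 to 18 with single arrays left out (18 without sham 4 h replicate 1, 17 without replicate 2). At 8 h (0) they were 1 without the 4 arrays and 1 with only the compared groups, and at 24 h (0) 3 against all controls. At 72 h (0) they were 2 without the 4 arrays and 0 to 5 with single arrays left out (5 without injury 72 h replicate 1). For 72 h minus 4 h (1) they were 0 after quantile normalization, 0 without the filter, 2 with the floor at the 25th percentile, 5 with the mean of probe sets, 0 with the replicate block, 0 without the 4 arrays and 0 to 13 with single arrays left out. Rat Cox6c in that comparison was 1.79 (adjusted p = 0.0373) with the mean of probe sets, against -0.49, since its 2 probe sets oppose. For the other changes the cause was not tested. Leaving out the 4 arrays, and all values of 72 h minus 4 h with arrays left out, were chosen after the data were seen.

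Whether title numbers pair the samples was not settled. A correlation over 0.1 was found in 0 of 8 mouse pairs and 4 of 15 rat pairs. With 2 sham arrays in a group, their deviations from the group mean mirror each other. Both mouse sham arrays of a time carry the same number, so the mouse pairs could not show pairing. In rat at 30 min the same-number pairs gave 0.357, 0.247, -0.411 and 0.358. With 2 sham arrays at most times, the precision is low, and a difference that missed the threshold is not shown to be absent.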
